A study of Helianthus annuus with 24 samples.

Results

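Nectaries of sunflower (Helianthus annuus) line 467, labelled high for nectar production, were set against nectaries of line 456, labelled medium. The comparison holds 6 libraries, 3 of each line, of the 24 in the study. The other 18 are nectaries of line 434 (high), line 452 (medium), lines 412 and 441 (both low) and a maintainer line (ER) with no nectar class, and leaf. Lines 467 and 456 were picked by a readout: their mean levels of SWEET9, a sucrose exporter of nectaries, are close although their nectar classes differ, and the question is what else separates them. SWEET9 is therefore described without a test, and the closeness of other genes that follow SWEET9 across the lines is not independent of that choice.

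Both lines are interspecific crosses, and the labels name neither their parents nor any allele or treatment. Plants of both were about 40 days old, grown in a greenhouse at 23 °C with 16 h of light. Secreting florets were dissected by hand 4 to 8 h after dawn on several days, and about 50 nectaries from different plants went into each library. Each library is thus a pool of plants of 1 line, and a p-value sets a difference against how far such pools vary. The labels do not say when within those hours a library was collected, and its part in any difference was not tested.

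A floral nectary draws sucrose from the phloem or from its own starch, remakes it with sucrose phosphate synthase and releases it through SWEET9. A cell wall invertase then splits the sucrose outside the cell, which keeps the outward gradient steep and turns the nectar towards glucose and fructose. In Arabidopsis the YABBY factor CRC is needed to form the nectary, AG is a MADS-box factor of stamens, carpels and the nectary programme, and MYB21 acts with jasmonate and auxin in flower opening and secretion. All gene names below are those of the Arabidopsis gene that a sunflower contig matches best in the deposited table, so that several contigs can bear the same name.

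Values are whole numbers that the authors scaled by each library's upper quartile. The 6 libraries held an estimated 9350000 to 15000000 reads, and 1 read was worth 0.793 to 1.21 units. CRC marked both lines as nectary, since it averaged 22240 in line 467 and 27680 in line 456, while leaf had 58.33. The summed photosynthesis list gave 4785 to 9290 in line 467, 6112 to 19980 in line 456 and at least 1855759 in leaf. Replicate 2 of line 456 stands apart from its line: of 16366 contigs averaging at least 100 in nectaries, 1093 lie more than 2-fold above the mean of replicates 1 and 3 and 1348 more than 2-fold below. It also carries the photosynthesis sum of 19980, against 6112 and 6184 in its sister libraries, and still correlates best with its own line (r of 0.92 to 0.922, against at most 0.81 with any other line). Replicate 3 of line 452, which is in neither line but shares the estimate of the spread, stands further apart, with 3910 contigs more than 2-fold below. Calls of single contigs between lines 467 and 456 described here that change without either library are given both ways. For single contigs, tests of the difference between 2 pairs of lines are given with all 21 nectary libraries only.

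SWEET9 (Helianthus17324) stood at 52938, 28265 and 38248 in the 3 libraries of line 467, against 66552, 7069 and 62574 in line 456. The groups overlap, and the low library of line 456 is the one that stands apart. The means were 39820 ± 12410 in line 467 and 45400 ± 33250 in line 456 (SD, n = 3 each). These are the middle of the range: ER had 166600 and line 434 135100, while line 441 had 22580, line 452 17770 and line 412 16120.

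CWINV2 and SUS4, which cleave sucrose, were higher in line 467. CWINV2 (Helianthus23193), the invertase that splits exported sucrose in the cell wall, had 87252, 69306 and 78861 in line 467, against 6844, 4692 and 8573 in line 456. No library of line 456 came near line 467, and each of the 3 lay below every other nectary library of the study, the next being 12445 in replicate 3 of line 452. The mean was 78470 ± 8979 in line 467 and 6703 ± 1944 in line 456 (SD, n = 3 each), a ratio of 11.7. Line 456 was thus the lowest of the 7 lines, under line 452 at 25230 and the low lines 412 at 34630 and 441 at 42450, while ER at 207800 and line 434 at 186800 were above line 467. The change was 3.59 ± 0.37 on the log2 scale (SE; adjusted p = 8.79e-07 from limma), and 3.35 without replicate 2 of line 456.

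**Figure D1:**
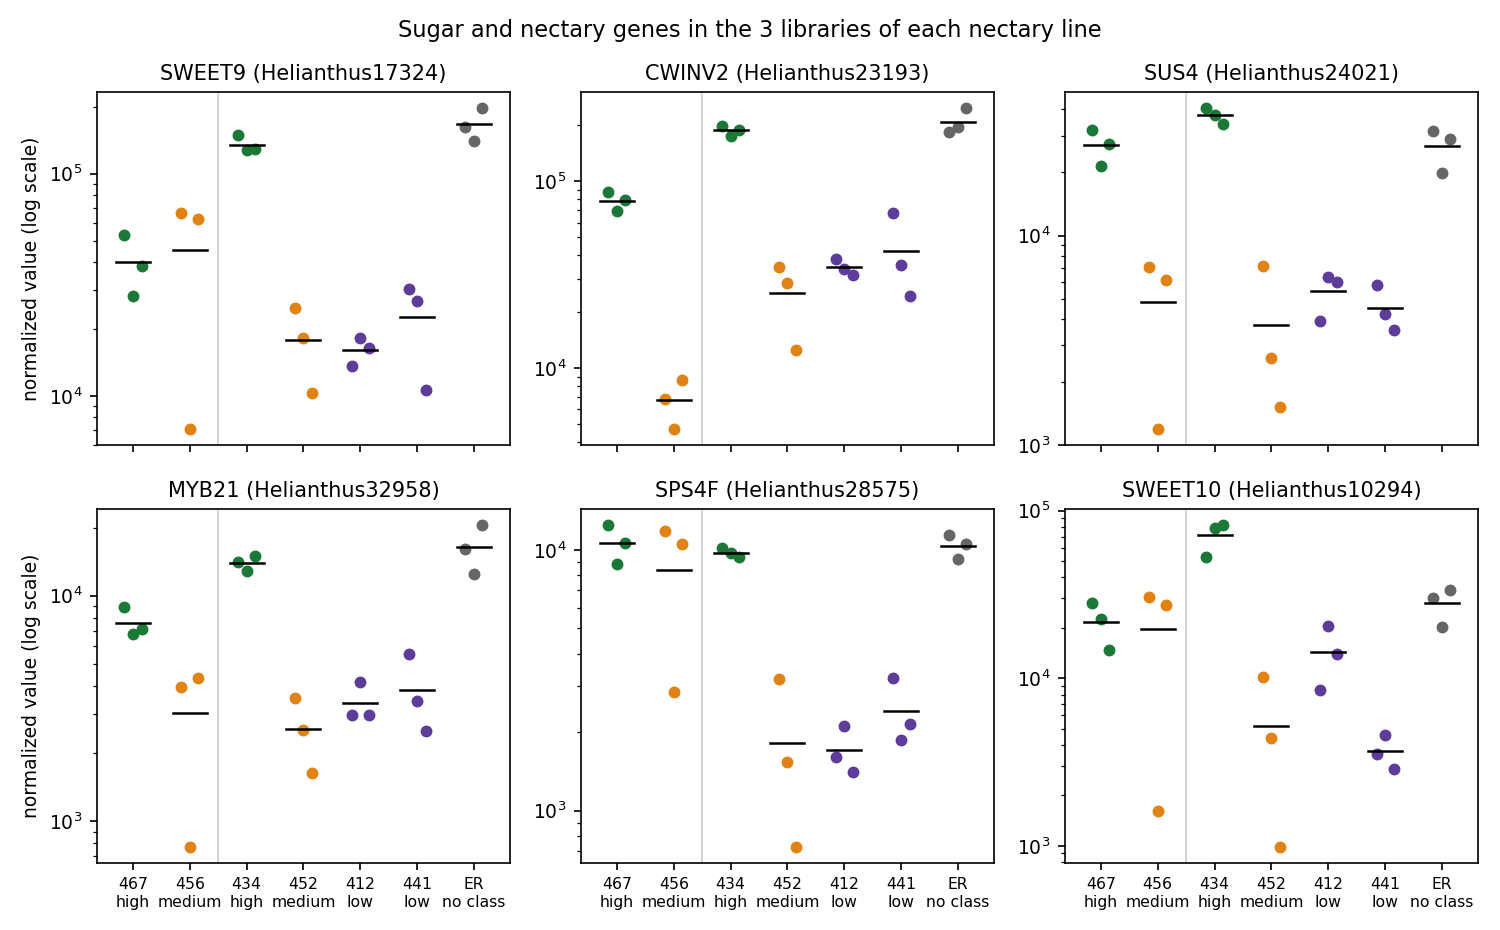
Normalized values (log axis) of 6 genes in the 3 libraries of each nectary line, with the nectar class under the line; points are libraries and bars are line means. CWINV2 is lowest in line 456 and SUS4 is high in lines 467, 434 and ER, while SWEET9, SPS4F and SWEET10 of replicates 1 and 3 of line 456 lie within or above the range of line 467.

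SUS4 (Helianthus24021), a sucrose synthase that cleaves sucrose inside the cell, moved the same way, with 31879, 21404 and 27467 in line 467, against 7088, 1191 and 6140 in line 456. The groups do not overlap, and without the lowest library the call remained (log2 change 2.83 ± 0.55 SE, adjusted p = 0.00102 from limma; 2.01 and 0.00379 without replicate 2 of line 456). Line 467 averaged 26920 and line 456 4806. Among the other lines, 434 at 37400 and ER at 26690 had SUS4 levels like those of line 467, and 412 at 5430, 441 at 4522 and 452 at 3758 levels like those of line 456. SPS4F (Helianthus28575), a sucrose phosphate synthase, was distributed otherwise. It had 12413, 8824 and 10603 in line 467, against 11830, 2853 and 10528 in line 456. Replicates 1 and 3 of line 456 thus sat within the range of line 467, whereas lines 452, 412 and 441 averaged 1823, 1704 and 2410 (log2 change for 467 minus 456 of 0.57 ± 0.47 SE, adjusted p = 0.424 from limma; -0.09 without replicate 2 of line 456). SPS1F (Helianthus37345), the other sucrose phosphate synthase, averaged 2338 ± 81.71 in line 467 and 2034 ± 860.6 in line 456 and was not called (0.28, adjusted p = 0.41), though it was without replicate 2 of line 456 (0.60, adjusted p = 0.0302). CWINV3 (Helianthus37004), a minor invertase contig, had 284, 181 and 321 in line 467, against 81, 96 and 124 in line 456 (adjusted p = 0.00362). Summed over the 4 contigs of that match, it was not called (log2 change -0.19, adjusted p = 0.541).

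Sugar transporters of the SWEET and STP families, which let sugars move along their gradient or import sugars with protons, differed in both directions. SWEET10 (Helianthus10294), the most abundant after SWEET9, had 28015, 22544 and 14816 in line 467, against 30380, 1615 and 27424 in line 456, and did not pass (0.93 ± 0.86 SE, adjusted p = 0.481; -0.45 and 0.67 without replicate 2 of line 456). SWEET2 (Helianthus1180), a vacuolar membrane SWEET in Arabidopsis, had 3, 2 and 1 in line 467, against 310, 124 and 326 in line 456 (adjusted p = 6.82e-09 from limma). The level of line 467, near that of 3 reads, was shared by line 434 at 2.667, whereas lines 452, 412 and 441 had 239, 306 and 186. SWEET12 (Helianthus27224), which loads sucrose into the phloem in Arabidopsis, had 197, 348 and 131 in line 467, against 1016, 8660 and 972 in line 456. The groups do not overlap, but the call was lost without replicate 2 of line 456 (log2 change -3.29, adjusted p = 0.0256; -2.25 and 0.145 without it) and without replicate 1 or 3 of line 467 (adjusted p = 0.071 and 0.0936). Contigs of the STP family, STP7 (Helianthus29820) and STP13 (Helianthus13140), and the transporter SWEET7 (Helianthus33780) were higher. STP7 averaged 248 ± 19.05 in line 467 and 55.67 ± 18.45 in line 456. STP13 averaged 1345 ± 319.5 in line 467 and 388 ± 57.45 in line 456. SWEET7 averaged 512.3 ± 100.6 in line 467 and 126.7 ± 51.03 in line 456 (SD, n = 3 each). Their adjusted p from limma were 0.000673, 0.0455 and 0.000407. STP13 missed the threshold when any 1 of the 6 libraries was left out, and SWEET7 summed over its 3 contigs was not called (0.30, adjusted p = 0.744). SWEET7 and STP13 are named here after their values were seen.

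Of 38457 contigs tested, 3111 were higher in line 467 and 4358 were lower (limma, adjusted p under 0.05 after Benjamini and Hochberg), so that 19.4% were called, 8.09% higher and 11.3% lower. Of those called, 2518 were at least 2-fold higher and 3307 at least 2-fold lower, while the median contig changed by 0.05 on the log2 scale. The 3 libraries of one line did not overlap the 3 of the other in 46.2% of contigs, which is the share to set beside the gaps described for single genes. Without replicate 3 of line 452 the split turned to 7939 higher and 6066 lower, with 36.4% called (20.6% higher and 15.8% lower) and 7459 of the 7469 original calls kept. Without replicate 2 of line 456 it was 2539 higher and 3563 lower (6.61% and 9.27%), with 5485 of the 7469 original calls (73.4%) kept. Without both libraries 19.9% were higher and 14.2% lower, with 6953 of the original calls kept. The 6 libraries formed 2 blocks, with correlations of 0.741 to 0.799 across the lines, 0.959 to 0.966 within line 467 and 0.92 to 0.974 within line 456.

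**Figure D2:**
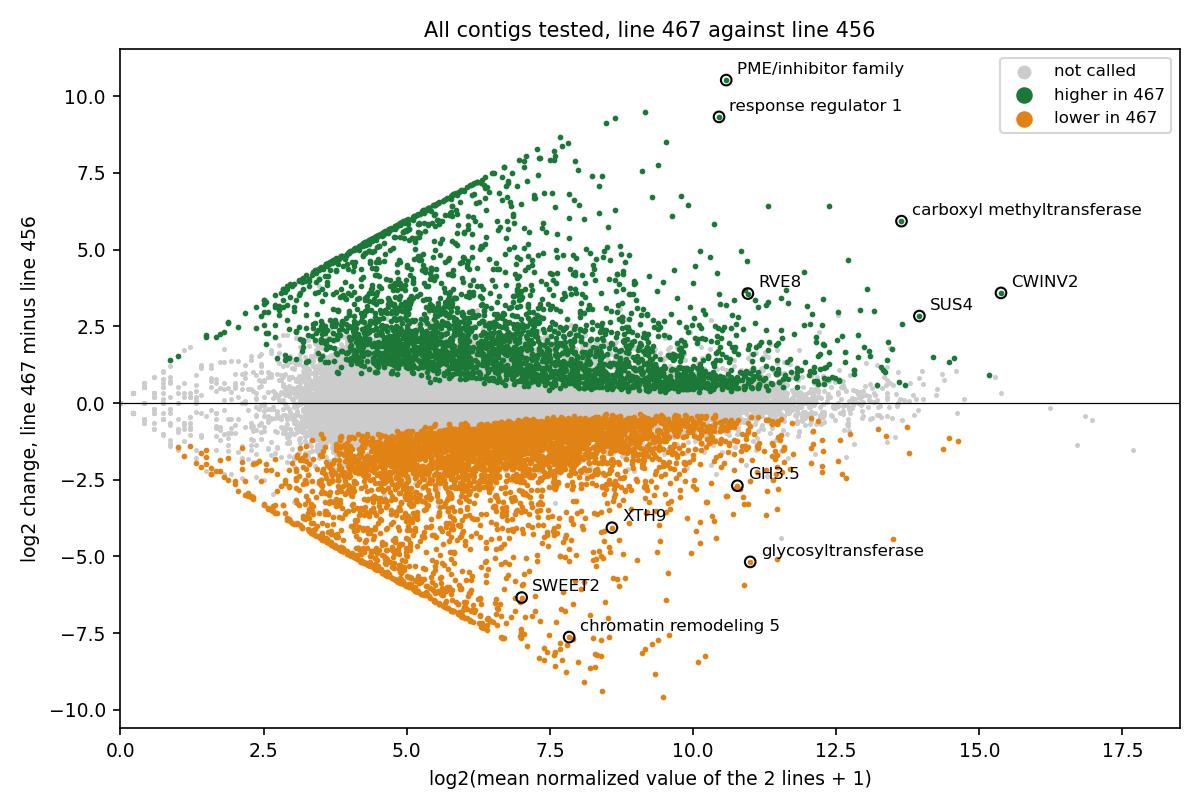
Change in line 467 against line 456 of every contig tested, as log2(value + 1), against the mean level of both lines on the log2 scale; green points were called higher in line 467 and orange points lower. CWINV2, SUS4 and a carboxyl methyltransferase stand out among the abundant contigs, at changes of 3.59, 2.83 and 5.92.

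In the lists of the sugar pathways the shares called were near or below the 19.4% of all contigs. Of 17 contigs for sucrose synthesis and cleavage 3 were higher and 0 lower (17.6% called). Of 28 sugar transporters 4 were higher and 2 lower (21.4%), of 20 contigs for starch synthesis 0 were higher and 1 lower (5%), and of 28 for starch breakdown 1 was higher and 3 lower (14.3%). BAM2 (Helianthus15366), a beta-amylase, had 13, 16 and 18 in line 467, against 200, 149 and 160 in line 456 (log2 change -3.36 ± 0.42 SE, adjusted p = 8.72e-06). Lines 434, 441 and ER were as low as line 467, at 13, 16.33 and 14.33, and lines 452 and 412 as high as line 456, at 232.7 and 175. Summed over the 4 contigs of its match, the change of BAM2 was -0.72 (adjusted p = 0.00443).

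Of the nectary regulators, MYB21 was higher in line 467. Its main contig (Helianthus32958) had 8877, 6788 and 7130 in line 467, against 3954, 773 and 4325 in line 456, with no overlap. The log2 change was 1.67 ± 0.48 SE (adjusted p = 0.018 from limma), and the call was lost without replicate 2 of line 456 (0.87, adjusted p = 0.0771) or replicate 1 of line 467 (1.56, adjusted p = 0.0692). Lines 434 and ER were above line 467, at 13960 and 16350, and lines 441, 412 and 452 near line 456, at 3811, 3353 and 2575. CRC (Helianthus1659) had 20564, 23324 and 22833 in line 467, against 27897, 25600 and 29545 in line 456; the groups do not overlap, but the change of -0.32 did not pass (adjusted p = 0.216). AG has 2 abundant contigs: Helianthus13335 averaged 13520 ± 1339 in line 467 and 9643 ± 4130 in line 456 and was not called (0.60, adjusted p = 0.326), while Helianthus13336 averaged 11350 ± 948.1 in line 467 and 7610 ± 690.5 in line 456 and was higher (0.58 ± 0.15 SE, adjusted p = 0.0105), though not without replicate 2 of line 467 (0.51, adjusted p = 0.0512). AP1 (Helianthus21482), a MADS-box factor of floral identity, averaged 7508 ± 1578 in line 467 and 3151 ± 767.5 in line 456 (1.26, adjusted p = 0.00547). Another, scarcer AP1 contig (Helianthus24638) went the other way, with 9, 7 and 6 in line 467, against 52, 63 and 48 in line 456 (-2.74). Of 18 contigs for nectary development and secretion 2 were higher, both of them MYB21, and 1, JMT, was lower (16.7% called). Of 31 floral organ and carpel regulators 2 were higher and 8 lower (32.3% called, median change -0.38; 3 higher and 5 lower without replicate 2 of line 456). The lower ones included contigs of AP1, AP2 and FUL. Helianthus13336 and Helianthus21482 are named here after their values were seen.

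Of the circadian clock, RVE8 and CCA1 were higher in line 467. RVE8 (Helianthus41675), an activator of evening genes that itself peaks in the morning, had 4203, 2430 and 3858 in line 467, against 660, 48 and 733 in line 456 (log2 change 3.57 ± 0.68 SE, adjusted p = 0.000918 from limma). The groups do not overlap, and the change was 2.29 without replicate 2 of line 456 (adjusted p = 0.000174). CCA1 (Helianthus18642), a core repressor of the clock that peaks at dawn, had 3151, 806 and 1351 in line 467, against 276, 67 and 558 in line 456 (2.78 ± 0.66 SE, adjusted p = 0.00526; 1.94 and 0.0356 without replicate 2 of line 456). Within each line the libraries of CCA1 thus differed more than 3-fold, in an order that LHY, its close relative, repeated. The most abundant of 3 LHY contigs (Helianthus18637) had 6043, 1873 and 2710 in line 467, against 1068, 626 and 2092 in line 456, and was not called (1.48, adjusted p = 0.0809; 0.0382 without replicate 3 of line 452). The other 2 passed (Helianthus18636, 2.03, adjusted p = 0.0221; Helianthus18635, 2.73, adjusted p = 0.0191), and neither did so without replicate 2 of line 456 (adjusted p = 0.134 and 0.108), without replicate 1 of either line (0.125 and 0.104 for line 467, 0.0522 and 0.0662 for line 456) or, for Helianthus18636, without replicate 3 of line 467 (0.0531). A contig of GI (Helianthus13505), a clock protein whose RNA peaks late in the day, had 18, 27 and 17 in line 467, against 75, 81 and 66 in line 456 (-1.82, adjusted p = 0.000469), but the 8 contigs of GI together did not pass (-0.04, adjusted p = 0.912); this contig was chosen after its values were seen.

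Of 59 clock contigs 6 were higher and 2 lower (13.6% called, below the 19.4% of all contigs), with a median change of 0.64 against 0.05 over all contigs. Without replicate 3 of line 452 the count became 25 higher and 2 lower, where 20.6% of all contigs were higher, and without replicate 2 of line 456 3 higher and 1 lower. RVE8 was also high in line 434 at 6310 and ER at 2288, and low in lines 412, 452 and 441, at 1030, 766.7 and 300. The part of the hour of dissection, which clock genes follow, was not tested.

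Enzymes of the cell wall held some of the widest gaps. Contigs Helianthus39156 and Helianthus39157 match 1 gene described as of the plant invertase and pectin methylesterase inhibitor superfamily. That description does not say whether the protein is an esterase or an inhibitor. Helianthus39157 had 12716, 13770 and 11877 in line 467, against 389, 536 and 599 in line 456 (log2 change 4.67 ± 0.25 SE, adjusted p = 1.4e-10 from limma). Helianthus39156 had 3141, 3243 and 2788 in line 467, against 2, 0 and 2 in line 456, below what 3 reads would give (adjusted p = 8.41e-10). Line 456 was lowest of the 7 lines for both, since the next, line 452, averaged 2002 and 261.7. Summed over the 3 contigs of that match, the change was 2.84 (adjusted p = 1.18e-07). A contig of pectin methylesterase 3 (Helianthus8102, named after its values were seen) had 7771, 8620 and 5478 in line 467, against 841, 800 and 750 in line 456 (3.17, adjusted p = 4.1e-07), again with line 456 the lowest line. The contigs Helianthus5810 and Helianthus5811 of the same match were lower in line 467 (-2.68 and -1.74, adjusted p = 0.000133 and 2.59e-05). Summed over its contigs, pectin methylesterase 3 changed by 1.75 (adjusted p = 0.000257). Contigs of other pectin matches were lower too. Helianthus40210 had 13, 52 and 13 in line 467, against 721, 749 and 418 in line 456 (-4.80, adjusted p = 0.00041). Helianthus12315 had 0, 1 and 0 in line 467, against 59, 63 and 35 in line 456 (adjusted p = 9.22e-09). Summed over the contigs of its match, the first was not called (-0.86, adjusted p = 0.173) and the second was higher (0.54, adjusted p = 0.0273).

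Of 51 pectin contigs 10 were higher and 12 lower (43.1% called, against 19.4% of all contigs). Of 29 contigs for expansins and xyloglucan enzymes, which loosen or rejoin the wall, 5 were higher and 9 lower (48.3%). XTH9 (Helianthus5425) had 31, 66 and 35 in line 467, against 825, 549 and 790 in line 456 (-4.06 ± 0.50 SE, adjusted p = 7.39e-06). Line 456 was the highest of the 7 and line 467 the lowest, since the other 5 averaged 66 to 147.3. A second xyloglucan enzyme, matching XTH16 (Helianthus14868, named after its values were seen), had 1416, 2082 and 1141 in line 467, against 10936, 3043 and 10741 in line 456 (-2.24, adjusted p = 0.00317), and the other 5 lines averaged 1191 to 3026.

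Among single contigs with wide gaps, Helianthus8064 matches an S-adenosylmethionine-dependent methyltransferase and, in UniRef, a salicylate carboxymethyltransferase, an enzyme class that makes volatile methyl esters. It had 31060, 31529 and 12262 in line 467, against 1088, 82 and 593 in line 456 (log2 change 5.92 ± 0.71 SE, adjusted p = 5.5e-06 from limma; 4.83 without replicate 2 of line 456). Line 467 was the highest line, above ER at 13510 and line 434 at 11760, and line 456 the lowest. Helianthus26948, matching an indole-3-acetate glucosyltransferase in Arabidopsis and a crocetin glucosyltransferase in UniRef, had 8697, 12242 and 10433 in line 467, against 323, 31 and 171 in line 456 (6.42 ± 0.58 SE, adjusted p = 1.51e-07). Line 467 lay above and line 456 below the other 5, which averaged 750.7 to 1985. A laccase 12 contig (Helianthus32105), of an enzyme family that polymerizes lignin precursors, averaged 1562 ± 166.1 in line 467 and 32.33 ± 28.02 in line 456. A contig matching an NRT1/PTR family transporter in UniRef (Helianthus16803) averaged 3562 ± 1122 in line 467 and 111.3 ± 20.26 in line 456 (SD, n = 3 each; adjusted p = 9.31e-07 for the laccase and 1.1e-09 for the transporter). These 4 contigs were chosen after their values were seen.

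The phenylpropanoid pathway, which leads from phenylalanine to lignin and flavonoids, had 8 of 29 contigs higher and 3 lower (37.9% called, median change 0.81 against 0.05 over all contigs). Among them C4H (Helianthus33515) and 4CL1 (Helianthus24992), which carry out early steps, had 179, 115 and 121 (C4H) and 353, 174 and 227 (4CL1) in line 467, against 8, 7 and 12 (C4H) and 29, 18 and 30 (4CL1) in line 456 (changes of 3.80 and 3.21, adjusted p = 1.58e-07 and 0.00254). No library of one line reached the other. CAD5 (Helianthus14689), of the last step towards lignin monomers, had 732, 1122 and 985 in line 467, against 490, 29 and 144 in line 456 (2.86, adjusted p = 0.0117; 1.81 and 0.0732 without replicate 2 of line 456). Of 69 cytochrome P450 contigs 15 were higher and 7 lower (31.9% called), and of 67 UDP-glycosyltransferases 6 were higher and 11 lower (25.4%), against 8.09% higher and 11.3% lower of all contigs. CYP81D1 (Helianthus13), a P450, had 434, 450 and 400 in line 467, against 3530, 9066 and 3133 in line 456 (-3.44, adjusted p = 1.49e-05). The glycosyltransferase Helianthus34901 had 67, 148 and 125 in line 467, against 3375, 4941 and 3616 in line 456 (-5.18 ± 0.32 SE, adjusted p = 1.03e-09), with line 434 between them at 1426 and the other 4 lines at 327.3 or less. Of 29 isoprenoid contigs 3 were higher and 3 lower (20.7% called, against 19.4% of all contigs). IPP1 (Helianthus16529), an isopentenyl diphosphate isomerase, averaged 5400 ± 819.8 in line 467 and 2931 ± 897.2 in line 456 (0.92, adjusted p = 0.0142). Its values were 0.65 and 0.0846 without replicate 2 of line 456, and 0.82 and 0.0628 without replicate 2 of line 467.

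Water channels and proton pumps, which move water and energize sugar transport, had 11 of 42 contigs higher and 2 lower (31% called, median change 0.46). VHP1 (Helianthus13117), a vacuolar pyrophosphatase that pumps protons, had 14645, 17399 and 18741 in line 467, against 8386, 2172 and 6743 in line 456 (log2 change 1.76 ± 0.38 SE, adjusted p = 0.00235 from limma). AHA1 (Helianthus29751), the proton pump of the plasma membrane, had 2358, 3015 and 2296 in line 467, against 644, 1034 and 720 in line 456 (1.70 ± 0.27 SE, adjusted p = 0.000152). Both were named after their values were seen, and the groups overlap in neither. One contig of the aquaporin PIP1;4 (Helianthus19480) had 397, 392 and 456 in line 467, against 0, 0 and 1 in line 456 (adjusted p = 9.31e-07), and the 6 contigs of PIP1;4 together changed by 0.65 (adjusted p = 0.0402). The aquaporin PIP2;1 (Helianthus30445) had 90, 155 and 78 in line 467, against 279, 2176 and 313 in line 456 (-2.47, adjusted p = 0.00998; -1.51 and 0.0571 without replicate 2 of line 456).

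Of 48 contigs for jasmonate, a hormone of flower opening and defence, 4 were higher and 6 lower (20.8% called). JMT (Helianthus37884), which methylates jasmonate, had 0, 0 and 1 in line 467, against 178, 14 and 162 in line 456 (adjusted p = 0.000347), and among the other lines 441 and 412 averaged 43 and 28.33 and 452, ER and 434 at most 5. LOX2 (Helianthus11959, named after its values were seen), a lipoxygenase of jasmonate synthesis, had 374, 361 and 353 in line 467, against 1035, 994 and 926 in line 456 (log2 change -1.44 ± 0.14 SE, adjusted p = 6.44e-07), with the other 5 lines at 287.3 to 414.3. The 6 contigs of LOX2 together did not pass (-0.16, adjusted p = 0.679). Contigs of the jasmonate receptor COI1 (Helianthus31450) and the repressor JAZ1 (Helianthus35366) were higher, averaging 67.33 ± 11.24 (COI1) and 140.7 ± 75.98 (JAZ1) in line 467 and 1.333 ± 1.155 (COI1) and 16 ± 15.39 (JAZ1) in line 456 (SD, n = 3 each; adjusted p = 1.07e-07 and 0.00117). Summed over 8 and 5 contigs, neither match was called (0.07 and -0.13, adjusted p = 0.714 and 0.789).

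Of 34 auxin contigs 0 were higher and 5 lower at the adjusted threshold in limma (14.7% called, against 19.4% of all contigs), and without replicate 3 of line 452 10 were higher and 7 lower, where 36.4% of all contigs were called. GH3.5 and GH3.6 conjugate auxin to amino acids. GH3.5 (Helianthus6006) had 348, 344 and 199 in line 467, against 878, 7779 and 956 in line 456 (log2 change -2.70, adjusted p = 0.00533; -1.67 and 0.022 without replicate 2 of line 456), and a GH3.6 contig (Helianthus6009) had 1, 0 and 0 in line 467, against 40, 36 and 47 in line 456 (adjusted p = 9.43e-09). ARF5 (Helianthus15003), a transcription factor of the auxin response, had 21, 23 and 18 in line 467, against 133, 65 and 102 in line 456 (-2.17 ± 0.32 SE, adjusted p = 6e-05). All 3 genes were lower in each library of line 467 than in any of line 456. For gibberellin, a growth hormone, 5 of 25 contigs were higher and 1 lower (24% called). The early synthesis enzymes KS (Helianthus27910) and KO (Helianthus4188) had 268, 294 and 226 (KS) and 91, 78 and 96 (KO) in line 467, against 6, 19 and 12 (KS) and 0, 1 and 0 (KO) in line 456 (adjusted p = 7.96e-08 and 3.11e-07). KS remained higher when its 3 contigs were summed (1.84, adjusted p = 0.000144), while KO did not pass (0.58, adjusted p = 0.0883). GA2OX1 (Helianthus10716), which inactivates gibberellin, averaged 549 ± 95.5 in line 467 and 123 ± 69.35 in line 456 (2.36, adjusted p = 0.0322; 1.73 and 0.157 without replicate 2 of line 456, and 0.0645 to 0.101 without any 1 library of line 467).

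**Figure D3:**
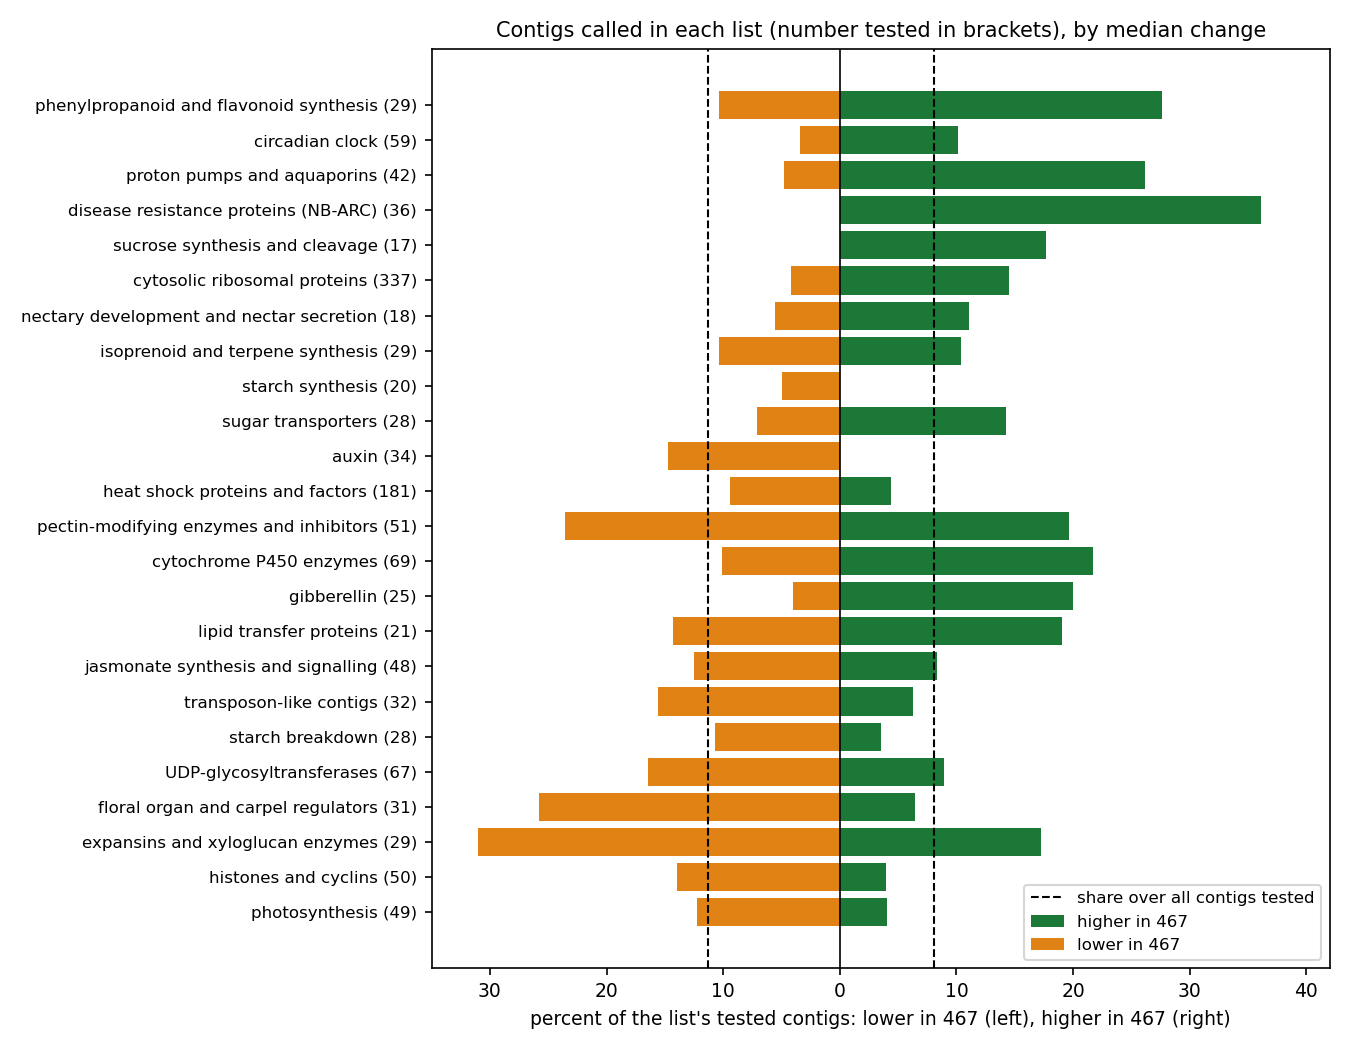
Percent of the tested contigs of each list with at least 15 contigs that were called higher (right) or lower (left) in line 467, ordered by the median change of the list; dashed lines mark the shares over all contigs, 8.09% higher and 11.3% lower. Disease resistance proteins have 13 of 36 contigs higher and 0 lower, and expansins and xyloglucan enzymes 9 of 29 lower.

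Among lists gathered by the words of the deposited description, disease resistance proteins of the NB-ARC class, which sense pathogens inside the cell, had 13 of 36 contigs higher and 0 lower (36.1% called; 14 higher and 3 lower without replicate 3 of line 452, 10 and 0 without replicate 2 of line 456). Helianthus22995 of this class had 446, 679 and 261 in line 467, against 41, 13 and 23 in line 456 (log2 change 4.15, adjusted p = 4.4e-06). Of 337 ribosomal protein contigs, those of organelles included, 49 were higher and 14 lower (18.7% called, median change 0.24). Heat shock proteins and factors had 8 of 181 higher and 17 lower, and histones and cyclins 2 of 50 higher and 7 lower, both near or below the background. Transposon-like contigs had 2 of 32 higher and 5 lower (21.9% called, against 19.4% of all contigs). Lipid transfer proteins had 4 of 21 higher and 3 lower (33.3% called). Several of these counts moved with the library that shares only the spread. Without replicate 3 of line 452 the shares over all contigs rose as well, to 20.6% higher and 15.8% lower. In that setting, 7 nectary contigs were higher and 1 lower, 8 and 3 sugar transporters and 8 and 3 isoprenoid contigs. Counts were 12 and 13 for UDP-glycosyltransferases, 37 and 22 for heat shock contigs and 84 and 24 for ribosomal contigs. The same held for 5 and 9 photosynthesis contigs, 3 and 12 floral regulators, 15 and 3 pumps and water channels, 16 and 15 pectin contigs, 3 and 13 histones and cyclins, 4 and 5 transposon-like contigs and 1 and 5 guard cell markers. Without replicate 2 of line 456 the shares over all contigs were 6.61% higher and 9.27% lower. There, 1 nectary contig was higher and 1 lower, 4 and 1 contigs of sucrose synthesis and cleavage and 3 and 1 sugar transporters. Counts without this library were 2 and 10 for histones and cyclins, 1 and 3 for isoprenoid contigs and 3 and 10 for UDP-glycosyltransferases. Ribosomal contigs had 32 and 8, and lipid transfer contigs 2 and 2.

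Markers of other tissues were read beside these results. Of 49 photosynthesis contigs 2 were higher and 6 lower (16.3% called, below the 19.4% of all contigs), with a median of -0.56. Without replicate 2 of line 456 the counts were 2 and 2 and the median 0.08. PSBO2 (Helianthus10265) and LHCB4.2 (Helianthus25857), of photosystem II, carried 99, 188 and 78 (PSBO2) and 207, 212 and 74 (LHCB4.2) in line 467, against 201, 4122 and 296 (PSBO2) and 317, 2141 and 365 (LHCB4.2) in line 456; neither was called without replicate 2 of line 456 (adjusted p = 0.244 and 0.0908). The pollen list matched contigs of ANX1 and ANX2 only, receptor kinases that keep pollen tubes intact in Arabidopsis. Its sum was 1217 to 1728 in line 467, against 2638, 4679 and 2745 in line 456, the highest being replicate 2. Of its 6 contigs 1 was higher and 4 lower (83.3% called). One ANX1 contig (Helianthus16265) was near 0 in line 467, with 1, 3 and 2, against 139, 197 and 156 in line 456. The other ANX1 contig held the highest value of the list in these libraries, 4090, where ANX2 reached at most 476. An ANX2 contig (Helianthus29498) had 476, 437 and 451 in line 467, against 28, 71 and 25 in line 456. Other ANX2 contigs were lower in line 467, Helianthus15133 by -2.22 and Helianthus29494 by -2.52 on the log2 scale. Of the guard cell list contigs matched OST1 and HT1 only, with sums of 812 to 893 in line 467 and 2434 to 2627 in line 456. Of its 10 contigs 1 was higher and 3 lower (40% called). OST1 (Helianthus32324), a kinase of the abscisic acid response, had 174, 146 and 104 in line 467, against 971, 776 and 1323 in line 456 (log2 change -2.84 ± 0.29 SE, adjusted p = 6.74e-07). Vascular markers summed to 13257 to 16461 in line 467, against 12159, 24825 and 10326 in line 456. Replicate 2 of line 456 was thus above every library of line 467, and its sister libraries were below. Among the vascular contigs 2 of 13 were higher and 1 lower (23.1% called). The higher ones were both contigs of SEOR1, a protein of sieve element plugs (Helianthus14 and Helianthus14536, with means of 227 and 226 in line 467 and 2.333 and 6 in line 456). In bulk tissue, more cells of a type and more RNA per cell cannot be told apart, and the part of cell make-up in these results was not tested.

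Of the most abundant called contigs with a match, the one for a cytosolic glutamine synthetase in UniRef (Helianthus10304), which assimilates ammonium, had 32275, 41337 and 31037 in line 467, against 20908, 7545 and 12442 in line 456 (log2 change 1.47 ± 0.27 SE, adjusted p = 0.000652). Thioredoxin H-type 1 (Helianthus21150), a small redox protein, had 14664, 18360 and 12159 in line 467, against 35000, 40825 and 30985 in line 456 (-1.25 ± 0.25 SE, adjusted p = 0.00157). The copper transporter 5 match (Helianthus23167) had 8376, 14204 and 10610 in line 467, against 32472, 32561 and 27693 in line 456 (-1.51 ± 0.30 SE, adjusted p = 0.00115). None of the 3 overlaps between the lines, and for the last 2 line 456 was the highest of the 7.

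The widest changes, taking the most abundant called contig of each match, were close to presence against absence. Response regulator 1 (Helianthus26293), which acts in cytokinin signalling in Arabidopsis, had 2786, 2685 and 2928 in line 467, against 3, 6 and 2 in line 456 (adjusted p = 7.9e-12 from limma), with lines 434, 452, 412 and 441 between them at 267 to 426.7 and ER at 18. Others near 0 in line 456 were nucleoporin 155 (Helianthus28073, mean 508 in line 467 and 1.667 in line 456), an Integrase-type DNA-binding factor (Helianthus3819, 487.7 in line 467 and 1.333 in line 456), a polyketide cyclase family protein (Helianthus25679, 263.7 in line 467 and 0 in line 456), the kinase CIPK7 (Helianthus3621, 249.3 in line 467 and 5 in line 456) and ADR1-like 3 (Helianthus12337, 227.7 in line 467 and 0.3333 in line 456), with adjusted p of at most 0.000707. ADR1-like 3 and CIPK7 were at 226 to 343 and 217.3 to 289.7 in all 5 other lines. Thus line 456 alone was this low for both. Summed over the contigs of the match, CIPK7 did not pass (0.72, adjusted p = 0.112) and ADR1-like 3 changed by 0.93 (adjusted p = 0.0334).

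In the other direction, the contig of chromatin remodeling 5 (Helianthus38455), which shapes nucleosomes, had 1, 2 and 1 in line 467, against 440, 521 and 400 in line 456 (adjusted p = 7.71e-15), and the 5 other lines were at 300 to 375. Line 467 alone was this low, and the 4 contigs of the match together changed by -0.99 (adjusted p = 4.41e-05). An O-methyltransferase (Helianthus21255) had 2, 6 and 0 in line 467, against 1466, 1560 and 834 in line 456, and a Rossmann-fold enzyme (Helianthus40338) 2, 0 and 0 in line 467, against 653, 398 and 711 in line 456. A transporter of the Major facilitator superfamily (Helianthus14770) had 8, 5 and 6 in line 467, against 2453, 1295 and 3328 in line 456, the highest line. A peroxidase (Helianthus6509) averaged 0.6667 in line 467 and 620.7 in line 456. An S-locus lectin kinase (Helianthus37634) averaged 2.667 in line 467 and 1147 in line 456. A calcium-dependent lipid-binding protein (Helianthus26673) averaged 2 in line 467 and 474 in line 456. An OB-fold protein (Helianthus27934) averaged 16.33 in line 467 and 1458 in line 456. All 8 were called (largest adjusted p = 2.2e-06).

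**Figure D4:**
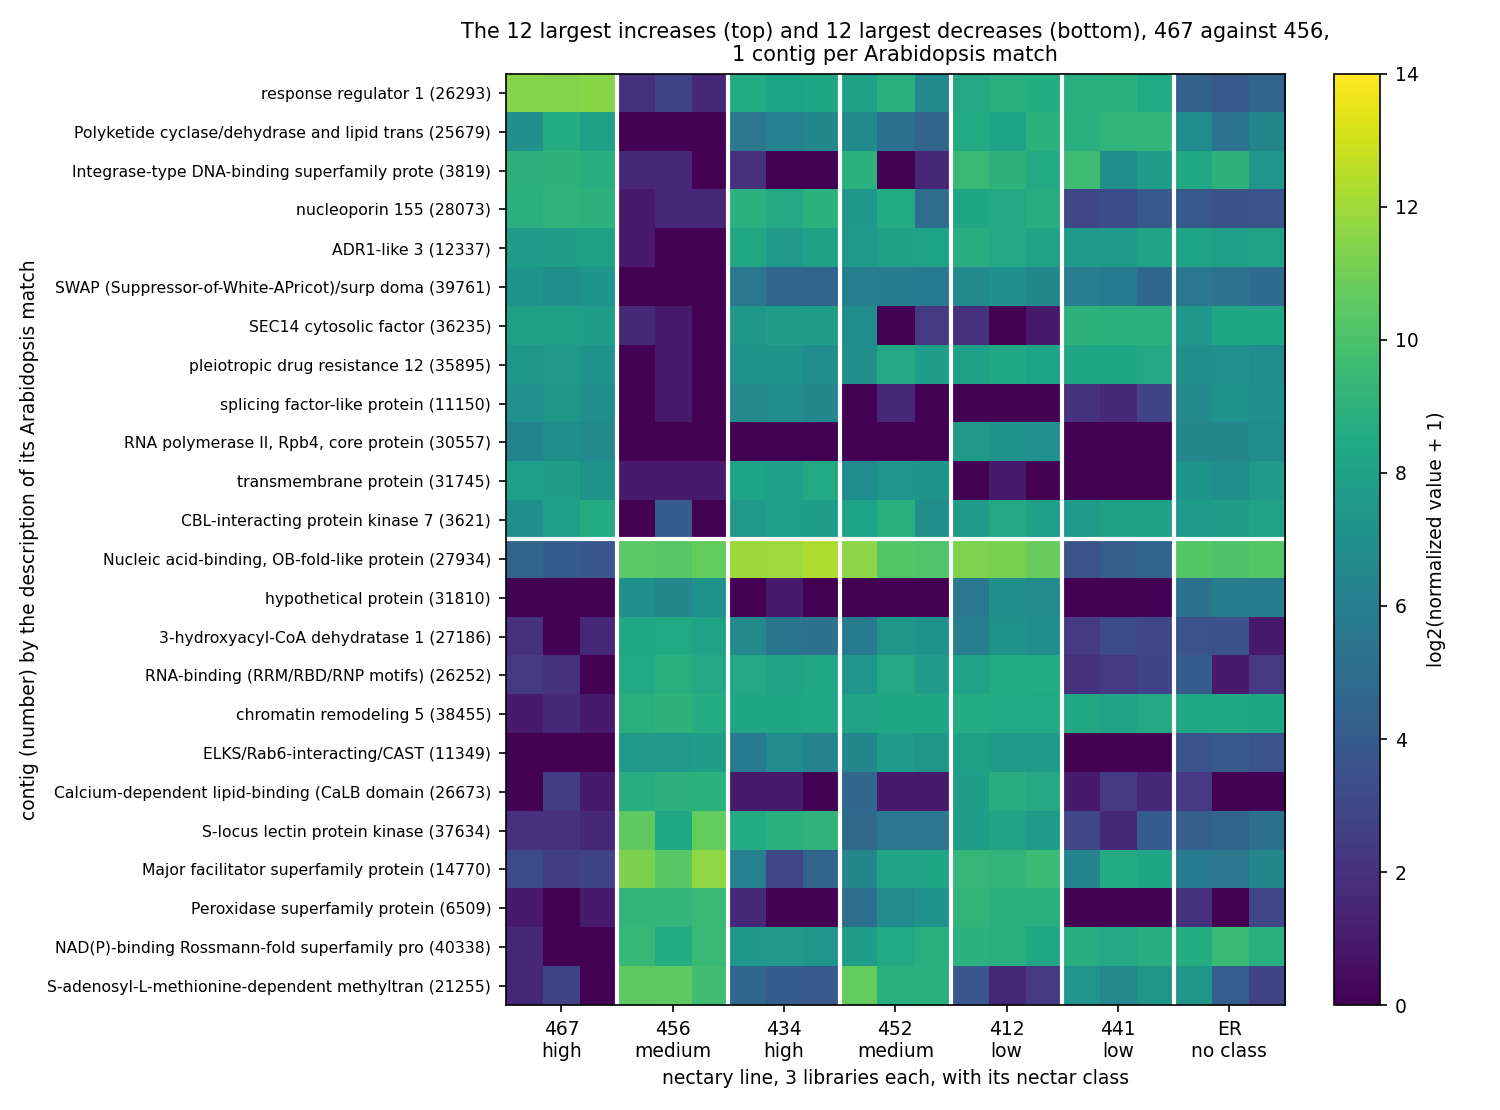
Levels, as log2(normalized value + 1), of the 12 largest increases (upper block) and 12 largest decreases (lower block) in the 3 libraries of each nectary line, with contig numbers in brackets. Each match has 1 contig, the most abundant that passed, so that some wider changes of less abundant contigs are not drawn. Some contigs that are dark in line 456 or in line 467 are dark in other lines too. Chromatin remodeling 5 and the Rossmann-fold enzyme are examples that are dark in line 467 alone, and ADR1-like 3, CIPK7 and the polyketide cyclase examples in line 456 alone.

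By a stricter description, 100 contigs were on in line 467 (a mean of at least 100 and at least 50 in each library) and off in line 456 (at most 3 in each), and 123 were on in line 456 and off in line 467. Only 20 of the first and 21 of the second carry an Arabidopsis match, 20% and 17.1% against 44.7% of all contigs. Of the 100, 8 were on in all 5 other nectary lines and 0 were off in all 5, and of the 123, 14 were on in all 5 and 0 off in all 5. Of the matched ones, 17 of 20 and 19 of 21 belong to a match with further contigs, and in 1 and 6 of them another contig of that match was called in the opposite direction. Over all contigs tested, 110 matches had a contig higher and another lower, and 66 of these were not called when their contigs were summed. After summing, 945 of 9773 matches were higher and 1075 lower (20.7% called). Whether such pairs are gene copies, alleles or assembly variants was not tested.

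The means of both lines were also placed among the other 5 nectary lines. Of 3111 contigs called higher, the mean of line 456 alone lay outside the range of the other 5 lines in 36.5% and that of line 467 alone in 19%, against 21.2% and 17.3% of all contigs tested. Of the 4358 called lower, the shares were 28.3% for line 456 alone and 29.3% for line 467 alone. CWINV2, ADR1-like 3, LOX2 and the XTH16 match are cases where line 456 alone lay outside, and SEOR1 and the KO contig Helianthus4188 cases where line 467 alone did.

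The other high line and the other medium line, 434 and 452, share no library with lines 467 and 456 and give the same difference of class. There 7485 contigs were higher in line 434 and 5781 lower (34.5% called), and without replicate 3 of line 452 4650 were higher and 4951 lower (24.9% called). Of the 3111 contigs higher in line 467 than in 456, 1243 (40%) were also higher in line 434 than in 452 and 373 (12%) were lower, where 19.5% of all contigs were higher. These 1243 are 16.6% of the 7485. Of the 4358 lower contigs, 1669 (38.3%) were also lower and 434 (9.96%) higher, where 15% of all contigs were lower, and the 1669 are 28.9% of the 5781. Without replicate 3 of line 452 the shared parts were 25.9% and 28.1% of the calls of 467 against 456, beside 12.1% and 12.9% of all contigs. The size of the change itself differed between both pairs of lines in 4899 of 38457 contigs (12.7%): the value for 467 minus 456 was the larger in 2302 (5.99%) and the smaller in 2597 (6.75%). Without replicate 3 of line 452 these shares were 9.17% and 7.27% (16.4% in all).

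CWINV2 was higher in both pairs, by 3.59 in line 467 over 456 and 3.01 in line 434 over 452 (adjusted p = 8.79e-07 and 9.28e-06 from limma; difference of the changes 0.57, adjusted p = 0.582). SUS4 (2.83 and 3.61), MYB21 (1.67 and 2.50), RVE8 (3.57 and 3.09), CCA1 (2.78 and 2.86), 4CL1 (3.21 and 3.28) and the transporter Helianthus16803 (4.95 and 5.48) likewise passed in both, as did, lower in both, BAM2 (-3.36 and -4.12), thioredoxin H-type 1 (-1.25 and -1.09), CYP81D1 (-3.44 and -2.24) and SWEET2, which was near 0 in lines 467 and 434. SPS4F did not change between lines 467 and 456 at the threshold (0.57) and rose by 2.67 in line 434 over 452 (adjusted p = 0.00042; difference of the changes -2.10, adjusted p = 0.0444). SWEET10 gave 0.93 and 4.3 in the same order, but the test of the difference did not pass (adjusted p = 0.0857). Both genes largely followed SWEET9 across the lines. Since lines 467 and 456 were picked for close SWEET9 means, these differences are not independent of that choice and no conclusion is drawn from them. Response regulator 1, OST1, XTH9 and chromatin remodeling 5 were called for lines 467 and 456 and not for lines 434 and 452, and for each the changes themselves differed (adjusted p = 1.25e-09, 5.62e-05, 0.00258 and 1.38e-12).

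**Figure D5:**
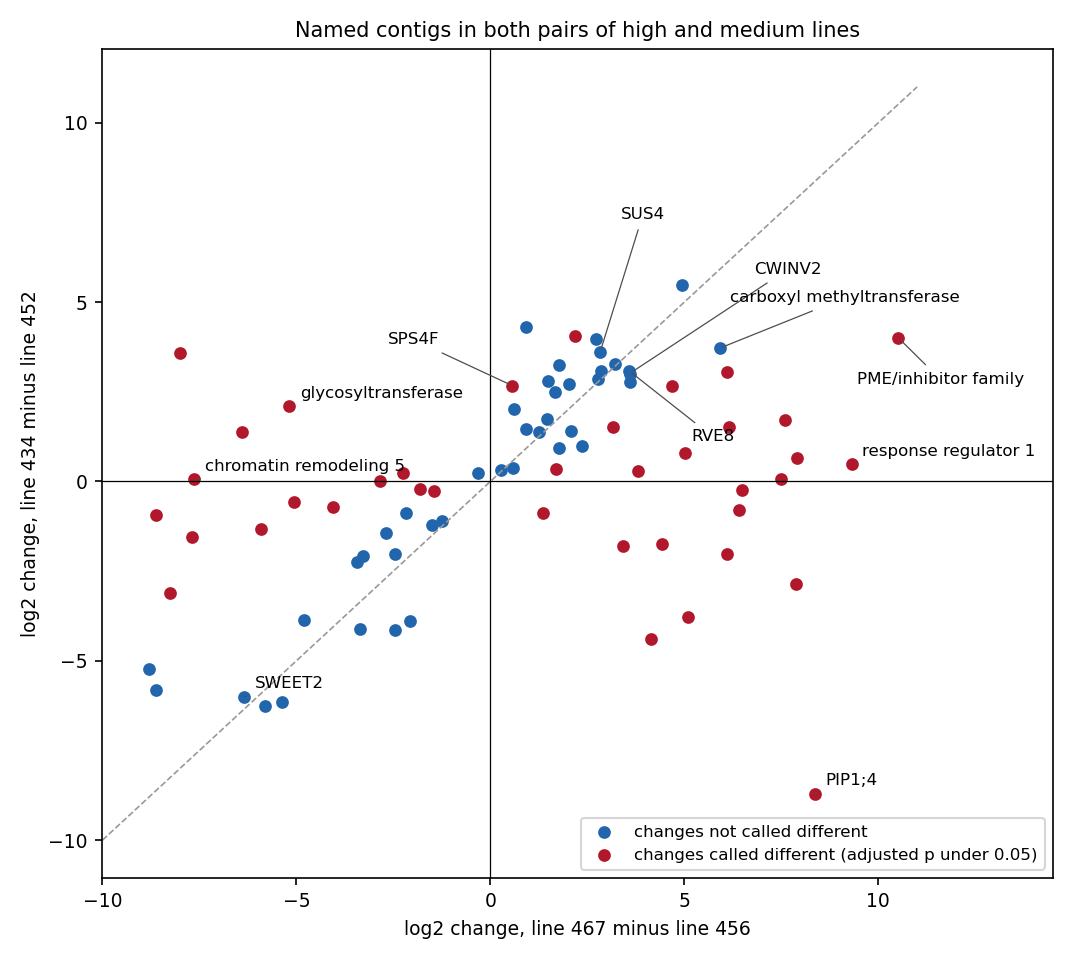
Log2 change of 79 named contigs in line 467 against line 456 (horizontal) and in line 434 against line 452 (vertical); the dashed line marks equal changes, and red points are contigs whose 2 changes differed at an adjusted p under 0.05. CWINV2, SUS4, RVE8 and SWEET2 lie near the line of equal change, and response regulator 1 and chromatin remodeling 5 near 0 on the vertical axis; the contigs were chosen for their change on the horizontal axis.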

How the data were processed

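Paired-end RNA-seq of 50 bp was run on 24 libraries, 3 in each of 8 groups. The deposited table gives 1 score per contig and library: a count that the authors scaled to a common upper quartile and rounded to a whole number, per the file headers. The aligner, assembly and counter were not given in the sources used here. Since the scores are no longer counts, no count model was used. The smallest steps between low values gave the units that 1 read is worth, and so the estimated depth, in each library.

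Line 467 was set against line 456 with limma 3.58.1 (trend, R 4.3.3) on log2(value + 1), fitted on the 21 nectary libraries with 1 mean per line, for contigs with a mean of at least 10. P-values were adjusted by Benjamini and Hochberg over all 38457 contigs, and a contig was called at an adjusted p under 0.05. The scale understates changes of low contigs. Line 434 against line 452, and the difference of both differences, came from the same fit. SWEET9 was not tested, since it chose the lines. No test was run for lists, and a count is read against the share of all contigs called. The fit was tested on simulated data with the same spread in every library, so that test does not cover libraries that stand apart.

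The members, the 27 lists and the named contigs were chosen with earlier results of these data known. Named contigs were fixed nectary genes, the 12 largest increases and decreases that did not overlap (of matched contigs with a mean of at least 100 in the higher line, taking for each match the most abundant contig that passed), up to 4 called contigs per list with the largest changes and a mean of at least 20 in the higher line, the 6 most abundant called contigs, and those said to be chosen after their values were seen. Only part of them is described. Replicate numbers do not pair the libraries of both lines: deviations of libraries with the same number correlated at -0.044, -0.014 and -0.066. Alternatives were another pseudocount, filter, scaling or set of libraries, sample weights, a replicate block, sums over contigs with the same match, and each library left out. Figures were drawn with matplotlib 3.10.9.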

Additional observations from a re-analysis of the deposited data

Results flagged for a closer look

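For 38 named contigs the change in line 467 against 456 differed from that in line 434 against 452 by limma's test of the difference (adjusted p under 0.05, as for 12.7% of all contigs). The values below are the first change minus the second on the log2(value + 1) scale. The labels do not pair the lines in this way, and most of these contigs were named for their change between lines 467 and 456. For contigs near 0 in a line the value depends on the pseudocount and is no measure of fold.

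Of the wall genes, the contigs Helianthus39156 and Helianthus39157 differed by 6.52 and 2.03, pectin methylesterase 3 (Helianthus8102) by 1.64, XTH9 by -3.37 and the XTH16 match by -2.48. In each pair of lines the contigs Helianthus39156, Helianthus39157 and Helianthus8102 were higher in the high line, so that the size and not the direction differed. Of sugar genes, CWINV3 differed by 2.24, SPS4F by -2.1 and STP7 by -1.87, and of pumps and water channels AHA1 by 1.33 and PIP1;4 by 17.07. The value of SPS4F, which largely followed SWEET9 across the lines, is not independent of how lines 467 and 456 were picked. The PIP1;4 contig was near 0 in lines 456, 434 and 441 and averaged 415 in line 467, 449 in line 452 and 378.3 in line 412.

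Among hormone and clock genes, KS differed by 6.17, KO by 4.61, COI1 by 4.24, JAZ1 by 5.21, JMT by -4.58, LOX2 by -1.18, GH3.6 by -4.5 and GI (Helianthus13505) by -1.6. This KO contig (Helianthus4188) averaged 3 or less in every line but 467, which the other KO contigs did not. Among enzymes of small molecules, the indole-3-acetate glucosyltransferase match differed by 7.22, laccase 12 by 3.03, C4H by 3.52 and the glycosyltransferase Helianthus34901 by -7.28; the last was lower in line 467 than in 456 and higher in line 434 than in 452.

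The 2 SEOR1 contigs differed by 8.1 and 8.87 and OST1 by -2.86. The resistance protein Helianthus22995 differed by 8.54: it was higher in line 467 than in 456, while line 434 averaged 21.33 and line 452 475.3. Response regulator 1 differed by 8.84, the polyketide cyclase by 7.25, the Integrase-type factor by 10.72, nucleoporin 155 by 5.88, ADR1-like 3 by 7.43 and CIPK7 by 6.72. Chromatin remodeling 5 differed by -7.69, the OB-fold protein by -7.79, the Rossmann-fold enzyme by -7.7, the lipid-binding protein by -6.14, the Major facilitator transporter Helianthus14770 by -5.14 and the S-locus lectin kinase by -11.59. The kinase averaged 2.667 in line 467 and 1147 in line 456, with 479.3 in line 434 and 39.33 in line 452.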

How the results depend on the processing

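No alternative fitted to single contigs turned the direction of a call among the named contigs. SPS4F and SWEET10, which were not called, turned to -0.09 and -0.45 without replicate 2 of line 456. A pseudocount of 5 and median-ratio rescaling kept every call among the named contigs. Sums over contigs with the same match could turn the direction. Helianthus12315 was lower in line 467 (adjusted p = 9.22e-09 from limma), while its summed match was higher (0.54, adjusted p = 0.0273). The counts that follow are over 80 of the contigs described in the text. Without replicate 2 of line 456 11 calls were lost, more than without any other of the 6 libraries: PIP2;1, PSBO2, SWEET12, LHCB4.2, GA2OX1, IPP1, CAD5, STP13, MYB21 and 2 LHY contigs. Without 1 of the other 5 libraries, 1 to 7 were lost, and in these 80 they were of the same genes or AG (Helianthus13336). Over all 148 contigs that the rule names, 24 calls were lost without replicate 2 of line 456 and 8 to 19 without 1 of the other 5. On the 6 libraries alone the calls of PSBO2, LHCB4.2, AG (Helianthus13336), MYB21 and LHY (Helianthus18636) were lost. Sample weights added CRC (-0.39, adjusted p = 0.0336), SPS1F and LHY (Helianthus18637).

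The number of contigs called moved more. Those higher in line 467 numbered 3111, and 6246 on the 6 libraries alone, 9380 with sample weights, 7939 without replicate 3 of line 452 and 7636 without replicate 2 of line 456 as well, the last an alternative chosen after seeing the data. Those lower numbered 4358, and 7362 with sample weights. Left-out libraries of lines 467 and 456 gave 2193 to 2726 higher and 3281 to 3684 lower, and 1972 to 2494 larger and 2082 to 3123 smaller changes than between lines 434 and 452. Summed over contigs with the same match, 945 matches were higher and 1075 lower, with fewer features tested. Contigs higher in line 434 than in 452 fell to 4650 without replicate 3 of line 452, against 7485 with it. For the difference of both changes, 2302 larger and 2597 smaller became 1420 and 1642 at a mean of at least 50, 4642 and 4273 with sample weights, 3530 larger without replicate 3 of line 452 and 4474 larger without both libraries. With off as 0 in all 3 libraries, 40 contigs were on in line 467 and 44 in line 456, and with on as a mean of at least 50, 214 and 261. The replicate block gave 3118 higher and 4286 lower, and 4827 higher on the 6 libraries alone; replicate numbers do not pair the libraries. Apart from fewer features or samples, the cause of these shifts was not tested. Values near 3 reads (2.38 to 3.64 units in the 6 libraries) cannot be told from absence, and intervals for single values are not given because the scores are no longer counts.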
